A study of Ovis aries and Mus musculus with 10 samples.

Results

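The miR-130 and miR-301 family was followed through the mammary cycle of sheep and of CD1 mice. The 3 members, mmu-miR-130a, mmu-miR-130b and mmu-miR-301a (mmu marks the mouse miRNA and is left out from here on), were picked by their names in the scanner files, out of 567 mouse miRNAs on the array, and all 3 were detected on at least 3 arrays and so entered the tests. Total RNA of whole mammary gland was hybridised to 10 Agilent miRNA arrays with mouse probes, 1 array for each stage. Of the 5 sheep arrays, 1 was of a ewe on day 15 of the cycle, 3 were of pregnancy (gestation day 14, day 64 and day 125) and 1 was of lactation day 60. Of the 5 mouse arrays, 1 was of virgin CD1 gland, 2 were of pregnancy (gestation day 10 and day 17) and 2 of lactation (day 2 and day 10). No treatment was given and no transgene or mutation is named for any group. How many animals gave each RNA, their ages and the breed of the ewes are not given in the sources used here. The family was chosen with the lower signal of miR-130a in lactation already known, so values of lactation against the other stages are given as a description and were not tested for the members.

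MicroRNAs of this family share the seed, the stretch near the 5′ end that pairs with target messages, so they can repress the same targets. miR-130 is known to repress PPARG, the master regulator of fat cell formation, and miR-130a is known in vessels, where it represses the antiangiogenic homeobox genes GAX and HOXA5 in endothelial cells. The mammary gland passes in each reproductive cycle from a gland rich in fat and stroma to one filled with secretory epithelium, while its vessels grow with it. In bulk tissue, fewer cells of a type and less RNA per cell cannot be told apart.

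The probe targets lie at 3 places in the mouse genome (build mm9, per the file headers). Both probes of miR-130a target chr2:84581273-84581291, with 18 and 19 bases. Those of miR-130b target chr16:17124164-17124181, with 17 and 18 bases, and those of miR-301a target chr11:86926558-86926578, with 20 and 21 bases. The probe targets of miR-301b, another miRNA of this seed, begin 331 bases from those of miR-130b on chromosome 16, so both belong to 1 locus. miR-301a is encoded within an intron of Ska2, a gene of the spindle and kinetochore complex. Each member had 2 probes and about 20 spots per array.

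A scaled signal below is a signal over its own array's 75th percentile, taken among the 94 miRNAs that every array detected. On the log2 scale they were floored at -5.11, a scaled signal of 0.0290, below which levels have no order. That percentile was between 788 and 1998 units on the sheep arrays and between 246 and 937 on the mouse arrays, lowest in lactation in both species, and detected miRNAs per array ranged from 125 to 208. Slide 2 held mouse virgin and mouse gestation day 10, and slide 1 held the remaining 8. No stage and day had a second array, so the tests take their spread from the days within each class (not pregnant, gestation, lactation) and from departures from a common species difference.

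miR-130a was detected on all 10 arrays. In sheep its scaled signal was 0.199 in cycle, 0.202 at gestation day 14, 0.212 at day 64, 0.172 at day 125 and 0.0866 in lactation. The first 3 sheep stages and late gestation lay close together, and lactation lay apart below them. In mouse it was 0.811 in virgin gland, 0.721 at gestation day 10, 0.518 at day 17, 0.315 at lactation day 2 and 0.170 at day 10. Each mouse stage was thus lower than the one before. Lactation was lowest in both species, which is the property for which miR-130a was chosen. It was lowest too for miR-361, miR-99a and miR-21, described below, and the share of all tested miRNAs with this order is not given here.

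**Figure D1:**
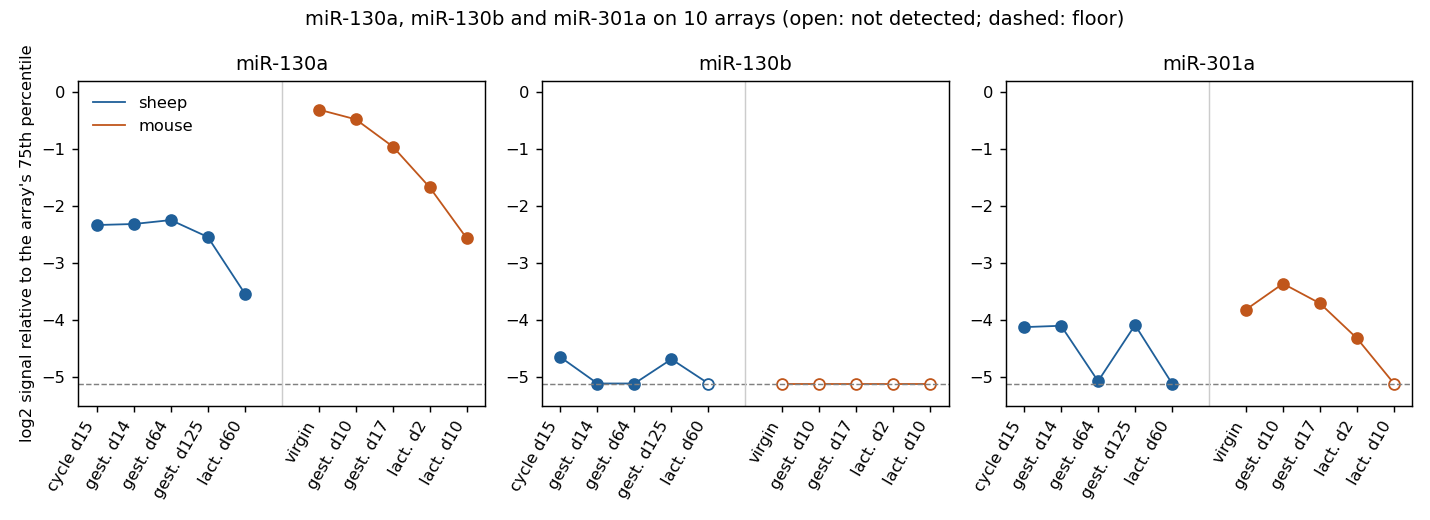
The log2 scaled signal (vertical axis) of miR-130a, miR-130b and miR-301a on each array, with sheep stages left and mouse stages right in each panel. Filled points are detected, open points are not detected, and the dashed line is the floor at -5.11. miR-130a ends at -3.53 in sheep and -2.56 in mouse, below every earlier stage of the same species, while miR-130b never leaves the floor in mouse.

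On the log2 scale miR-130a averaged -2.36 ± 0.16 (SD, n = 3 days) in sheep gestation and -3.53 in sheep lactation, and -0.71 ± 0.34 (SD, n = 2) in mouse gestation and -2.11 ± 0.63 (SD, n = 2) in mouse lactation. The fitted difference between lactation and gestation over both species was -1.33 ± 0.24 (standard error), and -1.17 and -1.40 within sheep and mouse. Against animals not pregnant (ewes in cycle and virgin mice) it was -1.55 ± 0.29 in lactation, and -1.20 and -1.81 within sheep and mouse. These differences are the ones for which miR-130a was chosen. With no scaling the lactation minus gestation value was -2.42, where all 213 tested miRNAs shifted by a median of -0.66, and with another background correction (normexp) it was -0.68, where they shifted by 0.65.

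The order of stages differed before and after scaling in mouse. Before scaling miR-130a had 485 ± 2.40 units (standard error between spots, which covers spots within 1 array only) in virgin gland, 506 ± 2.37 units at gestation day 10, 485 ± 4.08 at day 17, 124 ± 1.5 at lactation day 2 and 41.6 ± 0.90 at day 10. Unscaled signal was therefore nearly level until late gestation. The decrease of 0.48 in log2 scaled signal between gestation days 10 and 17 came with a rise of the array's own 75th percentile from 702 to 937 units, and the unscaled step was -0.06. Day 10 was on slide 2 and day 17 on slide 1, so stage and slide cannot be told apart at this step. At that step 6.1% of the 213 tested miRNAs, and 0 of the 3 members, were lower by over 1 log2 unit. The next steps, to lactation day 2 and then to day 10, were -0.72 ± 0.02 and -0.89 ± 0.04 in scaled signal (log2, standard error between spots), and -1.97 and -1.58 unscaled, so both scales put them below 0. Into lactation day 2, 0 of the 3 members and 6.57% of tested miRNAs were lower by over 1 log2 unit in scaled signal. At the step between the lactation days, 3.8% of the 213 tested miRNAs went as low as miR-130a or lower, and at the step into lactation day 2 it was 9.4%. These shares are a description and no test, since miR-130a was chosen for its low lactation values. The 213 also include 28 miRNAs at the floor on every array, which could not go lower.

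In sheep the steps of miR-130a from cycle to gestation day 14 and on to day 64 were 0.02 ± 0.02 and 0.07 ± 0.02 in log2 scaled signal. The step to day 125 was -0.30 ± 0.02, and that from day 125 to lactation day 60 was -0.99 ± 0.02. At the latter step 11.3% of tested miRNAs went as low or lower, a share with the same limits as those in mouse. Unscaled, miR-130a had 398 units in cycle, 369 at gestation day 14, 330 at day 64, 162 at day 125 and 68.3 in lactation. The day 125 array had a 75th percentile of 939 units against 1561 on the day 64 array, and most of the unscaled step of -1.03 between these days was shared by that percentile.

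**Figure D2:**
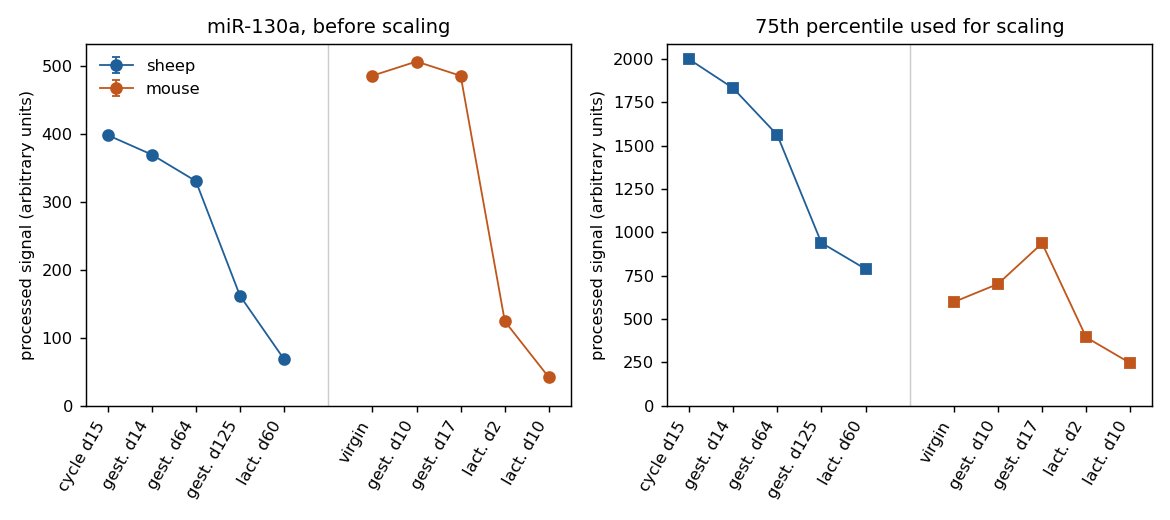
Left, processed signal of miR-130a in arbitrary units before scaling, with standard errors between spots that are mostly smaller than the points. Right, the 75th percentile by which each array was scaled, in the same units. Mouse miR-130a is level at 485, 506 and 485 units up to gestation day 17 and then lies at 124 and 41.6 units in lactation.

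The 2 probes of miR-130a gave the same picture on every array. The longer probe read between 1.87 and 2.35 times the shorter one, with a median of 2.05 over 10 arrays, and all spots of both were well above background on each array. Its course therefore does not rest on 1 probe or on spots close to background.

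miR-130b, which shares its locus with miR-301b, was detected on 4 of 5 sheep arrays and on 0 of 5 mouse arrays. Its unscaled signal in sheep was 79.7 ± 1.08 units in cycle (standard error between spots), 50.2 ± 1.52 at gestation day 14, 18.2 ± 0.65 at day 64, 36.6 ± 0.61 at day 125 and -1.35 ± 0.72 in lactation. In mouse it lay between -4.02 and 3.72 units, around 0. Sheep cycle and gestation thus lay above all mouse arrays, while sheep lactation lay among them.

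In scaled signal miR-130b was 0.0399 in cycle, 0.0274 at gestation day 14, 0.0117 at day 64 and 0.0390 at day 125, so it lay above the floor on 2 arrays only. Sheep gestation day 125 and mouse gestation day 17 had nearly the same 75th percentile, 939 and 937 units. Between them miR-130b was at least 1.34-fold higher in the sheep array (36.6 against 3.72 units), with the floor as the mouse limit. Over all 5 arrays of each species no fold is given, because the mean of the mouse limits (-4.55) lay above the sheep mean (-4.93). Signal came mostly from the longer probe, which was well above background in all spots on the 4 sheep arrays, at 132.9, 82.7, 32.4 and 66.9 units from cycle to gestation day 125. The shorter probe had 26.6, 17.8, 4.03 and 6.27 units on the same arrays, and most of its spots were above background in cycle only.

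In mouse no spot of the miR-130b probes was well above background on any array. The longer probe read 7.15, 7.21 and 7.66 units on the virgin and gestation arrays, where miR-130a had 485 units or more, and 1.46 and -2.75 units in lactation. The part of miR-130a in these readings was not tested. The opposite strand of the miR-130b hairpin, miR-130b*, was not detected on any of the 10 arrays and lay between -2.23 and 4.81 units.

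miR-301a was detected on 9 arrays, all but mouse lactation day 10. Its scaled signal in sheep was 0.0575 in cycle, 0.0585 at gestation day 14, 0.0298 at day 64, 0.0590 at day 125 and 0.0124 in lactation. In mouse it was 0.0713 in virgin gland, 0.0977 at gestation day 10, 0.0768 at day 17, 0.0502 at lactation day 2 and 0.0244 at day 10. The lactation arrays were the lowest of each species, as for miR-130a, and sheep gestation day 64 was low as well.

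The fitted log2 difference of miR-301a between lactation and gestation was -0.95 ± 0.32, with -0.69 in sheep and -1.18 in mouse, again as a description. The sheep step from gestation day 125 to lactation, -1.03, made it the single member lower by over 1 log2 unit there, beside 10.8% of tested miRNAs. It lay at the floor on sheep lactation day 60 and mouse lactation day 10, so these sizes depend on the floor, and with a floor 4 times lower the value was -1.52. With normexp, where all tested miRNAs shifted by a median of 0.65, it turned to 0.23. For miR-130b the fitted value was -0.04 ± 0.13, since most arrays lay at the floor, and it was -0.64 with the lower floor and 0.67 with normexp.

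**Figure D3:**
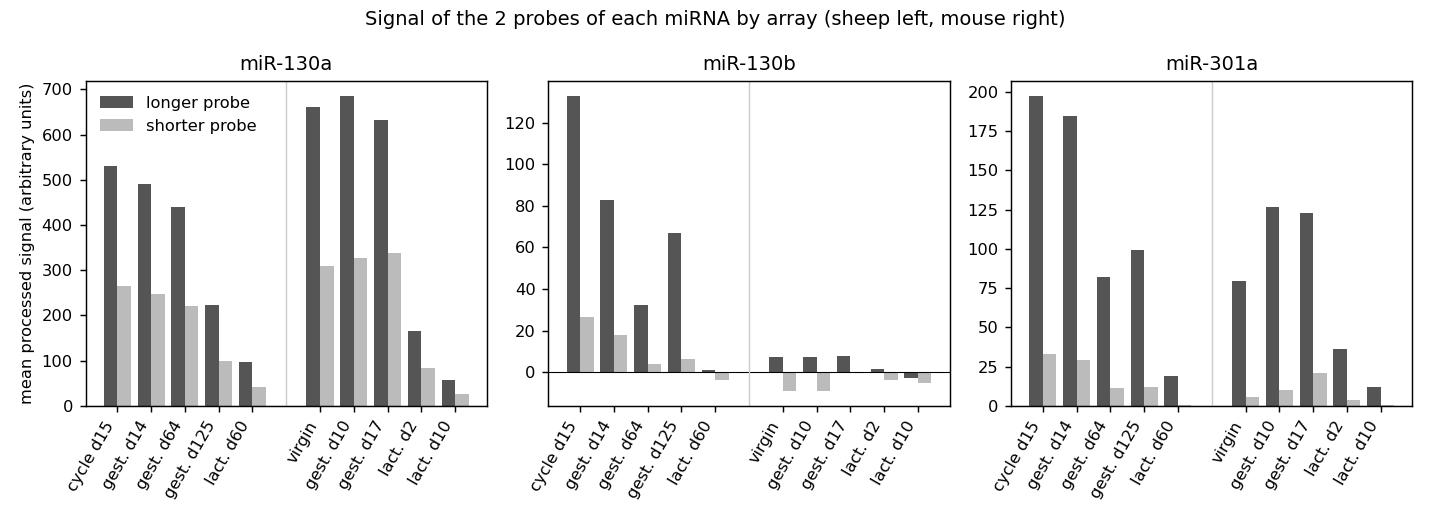
Mean processed signal in arbitrary units of the longer (dark) and shorter (light) probe of each member on the 10 arrays, sheep left and mouse right. The probes of miR-130a keep a ratio between 1.87 and 2.35, whereas miR-130b and miR-301a are read mostly by the longer probe.

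The longer probe of miR-301a carried most of its signal too. It read 197 and 185 units in sheep cycle and gestation day 14, 82.0 and 99 units at days 64 and 125, and 18.9 units in lactation. In mouse it read 79.8, 127 and 123 units up to gestation day 17 and then 36.0 and 11.7 units in lactation. The shorter probe had at most 32.8 units on any array.

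In scaled signal miR-301a dipped at sheep gestation day 64 and miR-130a did not, while miR-130b lay at the floor on both day 14 and day 64. Before scaling, from day 14 to day 64 miR-301a went from 107.1 to 46.5 units and miR-130b from 50.2 to 18.2 units, while miR-130a went from 369 to 330. The log2 scaled step of miR-301a was -0.97 ± 0.04 (standard error between spots), and 2.3% of the 213 tested miRNAs went as low or lower at that step. A decrease of over 1 log2 unit was seen there in 1.88% of them and in 0 of the 3 members. The step of miR-130a was 0.07 ± 0.02. This rests on the single day 64 array and was noticed after the values were seen.

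Between the species, miR-130a was lower in sheep than in mouse. The fitted log2 difference, adjusted for stage class, was -1.66 ± 0.21 (3.17-fold, limma adjusted p = 0.00172). The sheep mean was -2.59 ± 0.54 (SD, n = 5) and the mouse mean -1.19 ± 0.93 (SD, n = 5). The ranges overlapped, from -3.53 to -2.24 in sheep and from -2.56 to -0.30 in mouse, through the last mouse lactation array. Within a stage class sheep lay lower each time, by -2.03 on the log2 scale in animals not pregnant, -1.65 in gestation and -1.42 in lactation.

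miR-301a had a fitted difference of -0.63 ± 0.28 (limma adjusted p = 0.163) and miR-130b one of 0.17 ± 0.11 (limma adjusted p = 0.337), neither of which passed the threshold of 0.05. So 1 of 3 members was called between the species, beside 21.6% of the 213 miRNAs tested (13.1% lower in sheep and 8.45% higher). The 213 include 28 miRNAs at the floor on every array, which could not be called. The call for miR-130a was lost with no scaling, at -0.53 ± 0.39 (limma adjusted p = 0.309) with a median shift over all miRNAs of 0.69, and with the authors' value table, at -1.71 ± 0.49 (limma adjusted p = 0.105). With a floor 4 times lower miR-130b was higher in sheep by 1.37 ± 0.46 and miR-301a lower at -0.94 ± 0.32 (limma adjusted p = 0.0486). The value of miR-130b is no test of the species, because only sheep arrays detected it and so brought it into the tests. That floor also lies below the mouse limits of miR-130b, so the size of its difference depends on the floor. miR-130b turned to -0.32 with normexp, with a median shift over all miRNAs of -0.46, and miR-301a turned to 0.16 with no scaling. Slide as a term left miR-130a at -1.42, and slide 1 alone at -1.41. Whether the mouse probes fit the sheep sequences equally well was not analysed here.

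**Figure D4:**
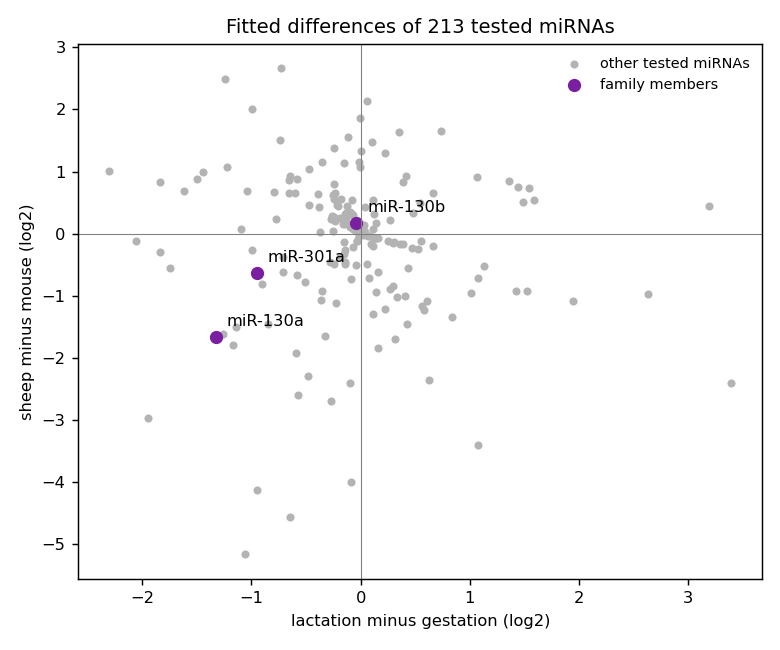
Fitted log2 difference between lactation and gestation (horizontal) and between sheep and mouse (vertical) for 213 tested miRNAs, with the 3 members in purple. miR-130a lies at -1.33 and -1.66, miR-301a at -0.95 and -0.63, and miR-130b near the origin at -0.04 and 0.17.

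Gestation did not differ detectably from animals not pregnant in any member. The log2 differences were -0.22 ± 0.27 for miR-130a, -0.16 ± 0.14 for miR-130b and -0.03 ± 0.36 for miR-301a (limma adjusted p = 1 each). None of the 3 members was called, or had an unadjusted p under 0.05 by limma, and 0.469% of tested miRNAs were called. The miR-130b value rests on the sheep arrays, since it lay at the floor on every mouse array. Within the species miR-130a differed by -0.04 in sheep and -0.41 in mouse, and miR-301a by -0.30 in sheep and 0.28 in mouse. The authors' value table put miR-130a at -1.15, with a median shift over all miRNAs of -0.41.

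A model of 6 means tested if the lactation change was larger in either species. The sheep change minus the mouse change was 0.24 ± 0.54 for miR-130a, 0.49 ± 0.73 for miR-301a and -0.14 ± 0.25 for miR-130b (limma adjusted p = 1 each), with 0 of 3 members called beside 0.939% of tested miRNAs. None had an unadjusted p under 0.05 by limma. Sheep lactation is 1 array, which limits this comparison. The miR-130b value is no test, because only sheep arrays detected it and so brought it into the tests. It lay at the floor in sheep lactation and on every mouse array, which fixed its mouse change at 0.0.

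Of the other array miRNAs known to carry this seed, miR-301b was not detected on any array and lay between -8.09 and -2.38 units. miR-721 was detected on 4 arrays. It had 19.4 units in sheep cycle, 51.1 and 116 units at sheep gestation days 14 and 64, and 21.6 units at mouse gestation day 10, and lay between -3.84 and 2.2 units on the other 6. It was thus brightest on the sheep day 64 array, where miR-130b and miR-301a were low. Its 4 probes, with targets of 12 to 15 bases, read 123, 111, 116 and 115 units there. On mouse gestation day 10, the only mouse array that detected miR-721, miR-301a had its highest scaled signal in mouse, 0.0977. In scaled signal miR-721 lay at the floor on 8 of the 10 arrays, and each of these pairings rests on 1 array.

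The miR-148 and miR-152 family has a seed with nearly the letters of this family, shifted by a single base along the miRNA. miR-148a, abundant in milk, ran opposite to miR-130a. Its log2 scaled signal in sheep was -1.70 in cycle, -2.14 at gestation day 14, -2.75 at day 64, -0.19 at day 125 and 1.42 in lactation. In mouse it was -1.76, -1.18, 0.99, 2.00 and 2.09 in stage order. Its lactation minus gestation difference was 2.63 ± 0.78 (limma adjusted p = 0.136), that of miR-152 was -0.08 ± 0.30 and that of miR-148b 0.00 ± 0.15 (limma adjusted p = 1 each), with miR-148b at the floor on 8 arrays. These 3 miRNAs did not move together.

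The 3 miRNAs with the most similar course to miR-130a were miR-361, miR-99a and miR-21. Likeness was the root mean square distance of log2 values over 10 arrays after each species was centred on its own mean, among 98 miRNAs at the floor on at most 3 arrays. It was 0.21 for miR-361, 0.31 for miR-99a and 0.33 for miR-21, against a median of 0.80 over the 98. miR-148a was 97th of the 98 at 2.18 and miR-152 was 36th at 0.72. For miR-301a the closest were miR-331-3p at 0.25, miR-342-3p at 0.35 and miR-21 again at 0.35. For miR-130b, mostly at the floor, they were miR-28, let-7b and miR-30e at 0.21 each, which says little beyond a flat course.

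**Figure D5:**
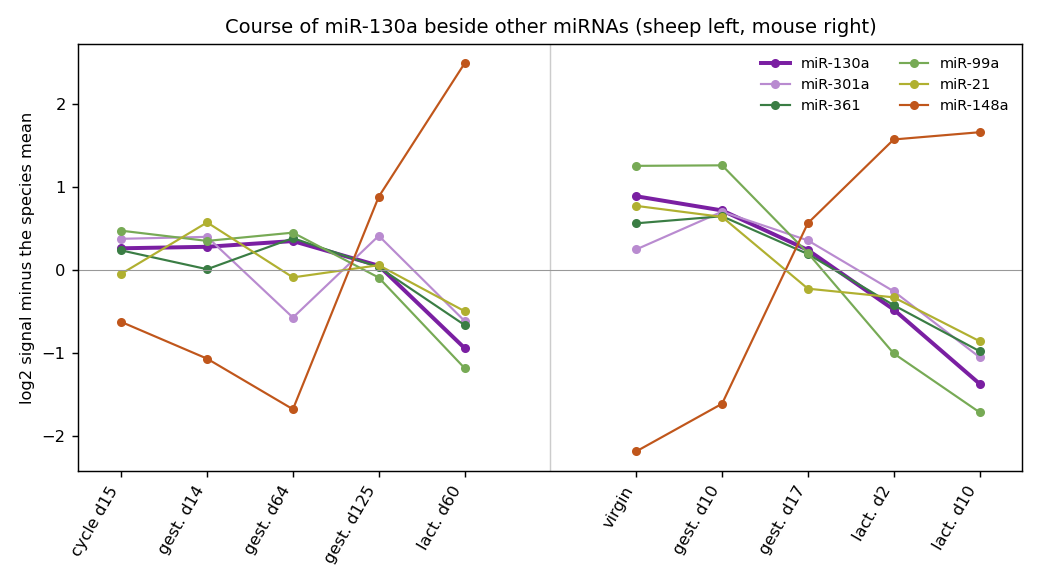
Log2 signal of miR-130a, miR-301a, the 3 miRNAs closest to miR-130a in course, and miR-148a, each minus its own mean in that species, with sheep left and mouse right. miR-361, miR-99a and miR-21 end low with miR-130a in both species, and miR-148a ends high.

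Of 8 other miRNAs listed for fat cells and PPARG, 4 were called lower in sheep than in mouse and 1 higher, beside 13.1% and 8.45% of all tested miRNAs. This list and the vessel list below were chosen with earlier results of these data known, so their counts are a description. The list's median was -0.73 beside 0.00 for all tested. miR-193b was lower in sheep at -2.70 ± 0.43, miR-378 at -2.41 ± 0.44 and miR-365 at -1.45 ± 0.22. Without scaling miR-193b was at -1.56 (limma adjusted p = 0.0643) and miR-365 at -0.31 (limma adjusted p = 0.529), and with the authors' value table miR-378 was at -2.11 (limma adjusted p = 0.119). miR-103 was lower at -0.95 ± 0.15 with scaling, and turned to 0.19 without scaling. miR-27b, which represses PPARG as miR-130 does, was higher in sheep by 1.07 ± 0.24 (limma adjusted p = 0.0215). With the authors' value table miR-27b was at 1.03 (limma adjusted p = 0.0537). With normexp it was at 0.63 (limma adjusted p = 0.145), with a median shift over all miRNAs of -0.46. miR-143 had the smallest difference at 0.20 ± 0.30 (limma adjusted p = 0.654).

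In lactation against gestation, 1 of these 8 was called, miR-103, higher by 1.01 ± 0.18 (limma adjusted p = 0.0486), beside 2.82% of all tested miRNAs, and it turned to -0.09 without scaling. miR-107 had the largest difference, 1.13 ± 0.26 (limma adjusted p = 0.0759), and miR-27b the smallest at 0.00 ± 0.28. The list's median was -0.05 beside 0.00 for all tested miRNAs. Its summed scaled signal was 2.74 to 3.53 in sheep gestation and 3.76 in sheep lactation, and 3.62 to 3.64 and 4.53 to 4.89 in the same mouse classes. None was called between gestation and animals not pregnant, beside 0.469% of all tested miRNAs.

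Of 15 miRNAs listed for vessels, miR-23b alone was called between the species, higher in sheep by 1.31 ± 0.10 (limma adjusted p = 0.000173), beside 21.6% of all tested miRNAs called and 8.45% called higher. With the authors' value table miR-23b was at 1.26 (limma adjusted p = 0.105). The list's median was 0.15 there. miR-210, which responds to low oxygen, had the largest difference at -1.69 ± 0.52 (limma adjusted p = 0.0612), and miR-17 and miR-126-5p lay at the floor on all 10 arrays. None of the 15 was called between lactation and gestation, beside 2.82% of all tested miRNAs. The list's median was -0.08 there and the endothelial miR-126-3p was at 0.09 ± 0.28 (limma adjusted p = 1). The summed scaled signal of both endothelial markers was highest in lactation in sheep (2.58, against 1.13 to 1.94 on the other sheep arrays) and in mouse was 2.08 at lactation day 2 and 1.41 at day 10, against 1.88 to 2.22 before.

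Summed marker miRNAs of other cell types differed between the stage classes as well. No epithelial, fibroblast and smooth muscle, or leukocyte marker was called between lactation and gestation, beside 2.82% of all tested miRNAs. Between lactation and animals not pregnant, 2 of the 5 fibroblast and smooth muscle miRNAs were called lower, beside 2.82% of all tested miRNAs. With the authors' value table no miRNA at all was called in that comparison. The summed scaled signal of 5 fibroblast and smooth muscle miRNAs on the array was 3.00 in sheep cycle, 1.22 to 2.78 in sheep gestation and 0.832 in sheep lactation, and 2.66, 1.75 to 2.97 and 0.659 to 0.938 in the mouse classes. From 3 to 5 of these 5 were detected on each array. The sum of 6 epithelial miRNAs, all detected everywhere, was 5.28, 3.86 to 11.6 and 10.2 in the sheep classes and 1.80, 3.02 to 6.54 and 10.8 to 14.2 in the mouse classes, with the highest sheep value at gestation day 125. The 6 leukocyte miRNAs summed to 0.878, 0.755 to 1.09 and 0.238 in sheep, and to 0.546, 0.552 to 0.644 and 0.305 to 0.418 in mouse, with 2 to 6 detected. Their part in the course of miR-130a and miR-301a was not tested.

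The summed red cell markers were lower in sheep, and 1 of the 3 was called lower there, beside 13.1% of all tested miRNAs. The sum of 3 red cell miRNAs was 0.151 to 0.620 over the sheep arrays and 1.72 to 5.97 over the mouse arrays, with 2 of the 3 at the floor on each sheep array. The sum of both endothelial markers was 1.13 to 2.58 in sheep and 1.41 to 2.22 in mouse, and 1 of them, miR-126-5p, lay at the floor throughout. Their part in the species difference of miR-130a was not tested.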

How the data were processed

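Per the file headers, the scanner files were written by Agilent Feature Extraction 10.5.1.1, whereas the submitters' processing notes give 9.5. The deposited processed signal is an intensity on a linear scale, background-subtracted and detrended within each array and not normalized between arrays. Detection, background, saturation and outlier marks are 0 or 1 flags that, per the file headers, this software set. The authors' deposited value table is also an intensity. Its values equalled the scanner's total signal per miRNA times 1 constant per array, within 0.1% for 98.7 to 100% of miRNAs with a total signal above 50. The basis of these constants is not given in the sources used here, so its scaling and centring stay unknown, and its column medians ran from -11.6 to 0.76.

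Outlier spots were left out, and spots were averaged per probe and probes per miRNA. No spot was saturated. Scaling used each array's 75th percentile among the 94 miRNAs that every array detected. The floor was the highest, over arrays, of the 5th percentile of detected miRNAs. Testing took the 213 miRNAs with detection on 3 or more arrays, of which 28 lay at the floor on every array. Those 28 could not be called but count in each share of all tested miRNAs. The fits used limma 3.58.1 under R 4.3.3, with Benjamini-Hochberg adjustment over all tested, with a threshold of 0.05. Residual degrees of freedom were 6 for the additive model (species plus stage class) and 4 for the model of 6 means. Where a group has several arrays they are different days, and p-values measure the spread between them; the number of arrays limits the precision.

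Named miRNAs were the members, others of the seed and of the shifted seed, the 3 closest in course to each member, and from the fat cell and vessel lists those called and those with the largest and smallest difference. The other lists were epithelium, endothelium, fibroblast and smooth muscle, leukocytes, red cells and striated muscle. The members and lists were chosen with earlier results of these data known. No mature miRNA sequences were used here.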

Additional observations from a re-analysis of the deposited data

How the results depend on the processing

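No paired analysis was possible because no label ties an array to the same animal as another. The call of 1 of 3 members between sheep and mouse became 0 with no scaling and 0 with the authors' value table. The count was 3 with a floor 4 times lower, which includes miR-130b, detected by sheep arrays only. It was 1 under the other 7 alternatives and without each single array. miR-130a lay between -1.78 and -1.57 without single arrays and between -1.66 and -1.32 under those 7. Leaving out the sheep cycle or the mouse virgin array gave the same value, -1.57, since the other then stood alone in its class. The counts of 0 for gestation against animals not pregnant and for the species difference of the lactation change held under every alternative run, where limma gave values. Without sheep lactation replicate 1 the species difference of the change could not be fitted.

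Between sheep and mouse, miR-301a turned to 0.16 with no scaling and miR-130b to -0.32 with normexp. Between gestation and animals not pregnant, miR-301a turned to 0.0214 with slide as a term, and leaving out single arrays gave -0.23 to 0.18 for it and -0.34 to 0.0305 for miR-130b. For the species difference of the change, miR-301a turned to -0.21 with no scaling, -0.61 with the lower floor and -0.36 with normexp, and leaving out single arrays gave -0.21 to 0.68 for miR-130a. None of these was called and the cause was not tested. The described lactation minus gestation value of miR-130a lay between -2.42 and -0.68 under 10 alternatives and between -1.50 and -1.07 without single arrays. Signal over background limits miR-130b and miR-301a, whose levels at the floor have no order.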

Other observations

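Striated muscle miRNAs, listed as markers of tissue that can be taken along with the gland, summed to 1.94 on the mouse virgin array, where miR-130a was highest, and to between 0.0109 and 0.753 on the other 9 arrays. All 4 were detected in virgin mouse gland, and also at mouse gestation day 17 and sheep gestation day 14. Without that array the species difference of miR-130a was -1.57. The sheep cycle array then stood alone in its class, so this value rests on the gestation and lactation arrays only.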
